A study of Mus musculus with 3 samples.

Results

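The endoplasmic reticulum (ER) stress genes Hspa5, Ddit3, Atf4, Xbp1, Herpud1, Sdf2l1, Pdia4 and Hsp90b1 were followed in single cells of adult mouse liver after irreversible electroporation (IRE). The 8 members were chosen by name, and all 8 of them were found among the 19091 genes of the count tables. Tissue was digested and profiled by Drop-seq, which captures cells in droplets with barcoded beads and counts transcripts as unique molecular identifiers (UMIs). The study made 1 library for each of 3 conditions, and all mice were of the strain C57BL/6 in the labels, given as C57BL/6J in the study's methods. The control livers had sham surgery according to the labels and were taken after 1 day from the corresponding uninjured area. The livers of the library IRE 1 day and of the library IRE 7 days had received electric pulses between 2 electrodes on 1 lobe, and the electroporated area was punched out 1 day or 7 days post-injury (p.i.). No control was taken at 7 days, so that in the 7-day comparison injury and time since surgery cannot be told apart. Each library pooled 3 livers, so that no test across animals was possible. Ratios and levels are therefore given with 95% intervals that cover counting error only.

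Proteins that enter the secretory pathway are folded in the ER with the help of chaperones and of enzymes that form disulfide bonds. When unfolded proteins accumulate, the sensors IRE1, PERK and ATF6 start the unfolded protein response, in which chaperone genes are transcribed, general translation is lowered and misfolded proteins are carried out of the ER and degraded. Among the members, Hspa5 (BiP) is the central chaperone and holds the sensors inactive, Hsp90b1 (GRP94) is the HSP90 paralog of the ER, Pdia4 is a disulfide isomerase and Sdf2l1 assists the BiP chaperone cycle. Herpud1 is a membrane protein of the machinery that degrades ER proteins. Xbp1 and Atf4 encode transcription factors of the IRE1 and PERK arms, and Ddit3 (CHOP) is a target of ATF4 that is linked to cell death. Xbp1 is activated by splicing and Atf4 largely by translation, neither of which can be read from UMI counts per gene. Secretory cells such as hepatocytes and plasma cells are known for high levels of these genes.

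The promoters of 3 members are shown because they held matches to known stress elements, and because at 1 day p.i. Herpud1 was above control whereas Hspa5 and Hsp90b1 were below it. RefSeq promoters of the build GRCm38.p6 were matched to 8 of 8 members, with 250 bases before and 50 bases after each start. The ER stress response element (ERSE), CCAAT and CCACG with 9 bases between them, was found in the promoters of Hspa5 and Hsp90b1 and in 0.119% of 32851 promoters of that length. The element ERSE-II, ATTGG and CCACG with 1 base between them, was found in the promoter of Herpud1 and in 0.0365% of all promoters. The C/EBP-ATF site TGATGNAA was found in the promoter of Herpud1 and in 3.97% of all promoters, and the core TGACGTGG, which XBP1 and ATF6 can bind, in no member and in 0.676% of all promoters. Both strands were searched and no match overlapped another. The letters of the matches stand in capitals in the 250 bases before the start, which lie at chr2:34771840-34772089 on the plus strand for Hspa5, at chr10:86705445-86705694 on the minus strand for Hsp90b1 and at chr8:94386179-94386428 on the plus strand for Herpud1.
Hspa5: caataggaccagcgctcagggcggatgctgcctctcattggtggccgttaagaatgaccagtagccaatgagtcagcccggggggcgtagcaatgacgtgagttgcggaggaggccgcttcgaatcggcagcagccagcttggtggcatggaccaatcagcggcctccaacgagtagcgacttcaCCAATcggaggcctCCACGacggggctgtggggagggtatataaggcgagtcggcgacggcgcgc
Hsp90b1: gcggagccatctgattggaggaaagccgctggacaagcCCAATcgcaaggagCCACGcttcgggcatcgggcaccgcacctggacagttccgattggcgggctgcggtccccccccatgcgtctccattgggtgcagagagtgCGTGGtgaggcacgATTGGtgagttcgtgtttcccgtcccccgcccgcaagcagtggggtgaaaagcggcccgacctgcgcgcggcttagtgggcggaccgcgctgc
Herpud1: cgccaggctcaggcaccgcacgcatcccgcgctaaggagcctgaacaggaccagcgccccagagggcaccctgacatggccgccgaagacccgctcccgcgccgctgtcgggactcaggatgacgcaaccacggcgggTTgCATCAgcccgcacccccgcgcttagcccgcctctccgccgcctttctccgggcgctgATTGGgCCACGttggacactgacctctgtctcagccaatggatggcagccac
The ERSE of Hspa5 lay 65 to 47 bases before the start. Hsp90b1 held 2 such elements, at 212 to 194 and, on the opposite strand, at 107 to 89 bases before the start. In Herpud1 the ERSE-II lay 52 to 42 bases and the TGATGNAA match, on the opposite strand, 112 to 105 bases before the start. Of the members without a match, Ddit3 (0.702-fold), Atf4 (0.875-fold) and Sdf2l1 (0.675-fold) were also below control at 1 day. The intervals of Xbp1 and Pdia4, likewise without a match, held equality. A match describes letters in this window and not binding.

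Barcodes with at least 200 detected genes were taken as cells, which gave 10386 cells and 8013800 UMIs in control, 9253 cells and 6107866 UMIs at 1 day p.i. and 5624 cells and 3058967 UMIs at 7 days p.i. The median depth was 595, 509 and 456.5 UMIs per cell. Of the cell barcodes, 68 were shared by control and 1 day, 44 by control and 7 days and 149 by both IRE libraries. The libraries stood apart in their RNA. Mitochondrial genes took 20.5% of the UMIs of control cells, 21.7% at 1 day and 4.10% at 7 days, and hepatocyte markers such as Alb and Apoa1 took 0.145%, 3.17% and 0.0294%. Cells were gated by marker genes that include no member. The largest gates were macrophages (2891 cells in control, 3264 at 1 day, 206 at 7 days), endothelial cells (1510, 3436 and 46), monocytes (1390, 62 and 553) and neutrophils (499, 87 and 3244), and 2645, 1938 and 1055 cells stayed ungated. No hepatocyte was gated in control or at 7 days, and 85 were gated at 1 day. At 7 days, S100a8 was detected in 82.9% of the cells outside the neutrophil gate, and neutrophil markers took 1.25% of the UMIs of monocyte-gated cells, against 1.19% for monocyte markers. At 1 day, hepatocyte markers took 2.86% of the UMIs of macrophage-gated cells, against 1.69% for macrophage markers. In control, S100a8 was detected in 25.9% of the cells outside the neutrophil gate, and neutrophil markers took 0.162% of the UMIs of endothelial-gated cells. Markers of the Arg1/Ccl2 myeloid gate were detected in 68.9% of neutrophil-gated cells at 7 days and in 8.62% in control. The gated cells of control and of the IRE libraries thus hold marker RNA of other cell types. Its part in the differences within a gate was not tested except where stated.

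The ER stress genes were lower at 1 day p.i. than in control, with the exception of Herpud1, which was higher, and of Xbp1 and Pdia4, whose intervals held equality. At 7 days p.i. Xbp1, Ddit3, Atf4, Sdf2l1, Pdia4 and Hspa5 were higher than in control, and Hsp90b1 and Herpud1 were lower. Levels are given as CPM, the UMIs of a gene for each 1000000 UMIs of the same cells. The 8 members together gave 3811 CPM in control (interval 3769 to 3854), 2682 at 1 day (2642 to 2724) and 4272 at 7 days (4199 to 4346). Against control, the sum was 0.704-fold at 1 day (0.690 to 0.717) and 1.12-fold at 7 days (1.10 to 1.14). The direction at 7 days flipped to 0.930-fold (0.911 to 0.949) when mitochondrial genes were left out of the total. At 7 days the sum was 1.59-fold the level at 1 day (1.56 to 1.63), and 1.30-fold without mitochondrial genes. Leaving them out moved every ratio at 7 days against control down, and the median ratio of all genes from 0.862 to 0.715.

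**Figure D1:**
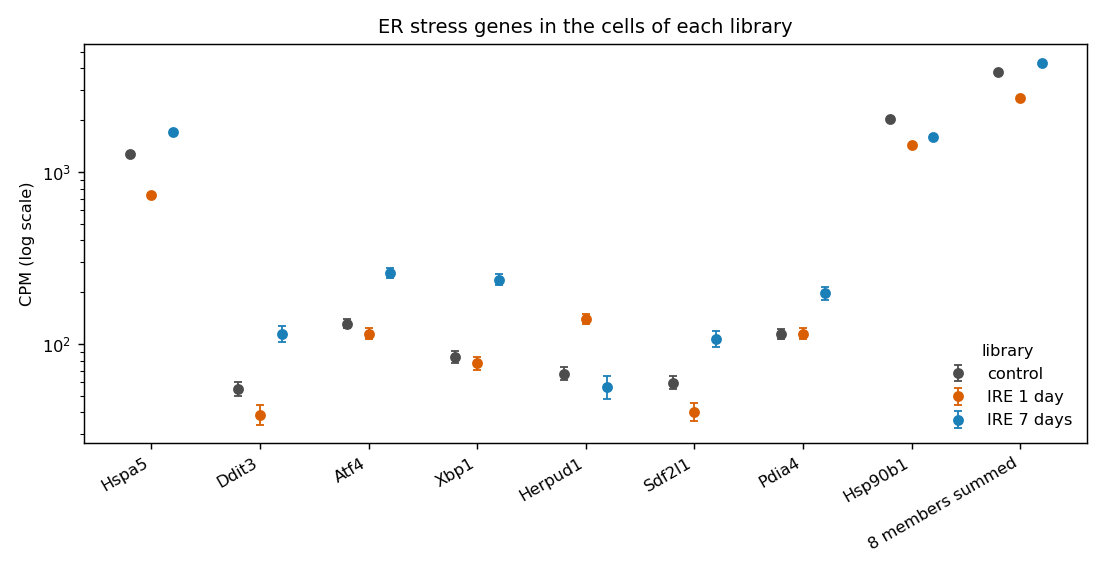
CPM (log scale) of each member and of the 8 members summed in the cells of the control, IRE 1 day and IRE 7 days libraries, with bars for the 95% counting interval, which is often smaller than the point. Herpud1 has its highest level at 1 day (139 CPM), whereas Xbp1, Atf4, Ddit3, Sdf2l1 and Pdia4 have theirs at 7 days.

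Hspa5 and Hsp90b1 held most of the UMIs of the members, 86.6% in control, 80.4% at 1 day and 77.3% at 7 days. Hspa5 gave 1269 CPM in control, 732 at 1 day and 1709 at 7 days. It was the member with the lowest ratio at 1 day, 0.577-fold of control (0.557 to 0.597), and it stood 1.35-fold above control at 7 days (1.30 to 1.39), or 1.12-fold without mitochondrial genes (1.08 to 1.16). Hsp90b1 gave 2031, 1426 and 1594 CPM, so that both IRE libraries were below control, at 0.702-fold (0.684 to 0.720) and 0.785-fold (0.760 to 0.810). Over all cells, Hspa5 was thus above and Hsp90b1 below control at 7 days. Within gates, Hsp90b1 was above control in neutrophil-gated (1.17-fold, 1.06 to 1.30) and monocyte-gated cells (1.22-fold, 1.10 to 1.34). Without mitochondrial genes both intervals held equality. Hsp90b1 was below control in macrophage-gated (0.805-fold) and T and NK cells (0.658-fold), and its interval held equality in endothelial-gated and ungated cells. The part of cell composition was not tested. Over all cells, the other 6 members together gave 511, 525 and 969 CPM.

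Pdia4 gave 114 CPM in control, 115 at 1 day and 197 at 7 days. Its ratio was 1.00 at 1 day (0.909 to 1.11) and 1.72 at 7 days (1.55 to 1.91). Sdf2l1 gave 59.7, 40.3 and 107 CPM, which was 0.675-fold of control at 1 day (0.577 to 0.789) and 1.79-fold at 7 days (1.55 to 2.07). Both were thus highest at 7 days, and Sdf2l1 was lowest at 1 day.

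The transcription factors were close to control or below it at 1 day and above it at 7 days. Xbp1 gave 84.0 CPM in control, 77.1 at 1 day and 236 at 7 days. At 7 days it had the highest ratio of all members, 2.81-fold (2.53 to 3.13), and 95.4% of all genes tested had a lower ratio. Atf4 gave 131, 115 and 259 CPM, 0.875-fold at 1 day (0.794 to 0.964) and 1.97-fold at 7 days (1.80 to 2.17). Ddit3 gave 55.0, 38.6 and 115 CPM, 0.702-fold at 1 day (0.597 to 0.824) and 2.09-fold at 7 days (1.81 to 2.40). Without mitochondrial genes the ratios at 7 days were 2.33 for Xbp1, 1.64 for Atf4 and 1.73 for Ddit3, with intervals above 1.

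Herpud1 followed another course. It gave 67.1 CPM in control (61.6 to 73.1), 139 at 1 day (130 to 149) and 55.9 at 7 days (47.8 to 64.9). The level at 1 day was 2.08-fold that of control (1.86 to 2.32), and the level at 7 days was 0.833-fold (0.697 to 0.991). The 1-day library thus stood above both others. Over 28 combinations of gate and library with at least 20000 UMIs, Spearman's rho of Herpud1 with the other members lay between -0.58 (Ddit3) and -0.03 (Sdf2l1), and over the 21 pairs without Herpud1 between -0.10 (Sdf2l1 with Pdia4) and 0.63 (Hspa5 with Hsp90b1), so that both ranges overlapped. These combinations share libraries and depth, and the values are a description.

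**Figure D2:**
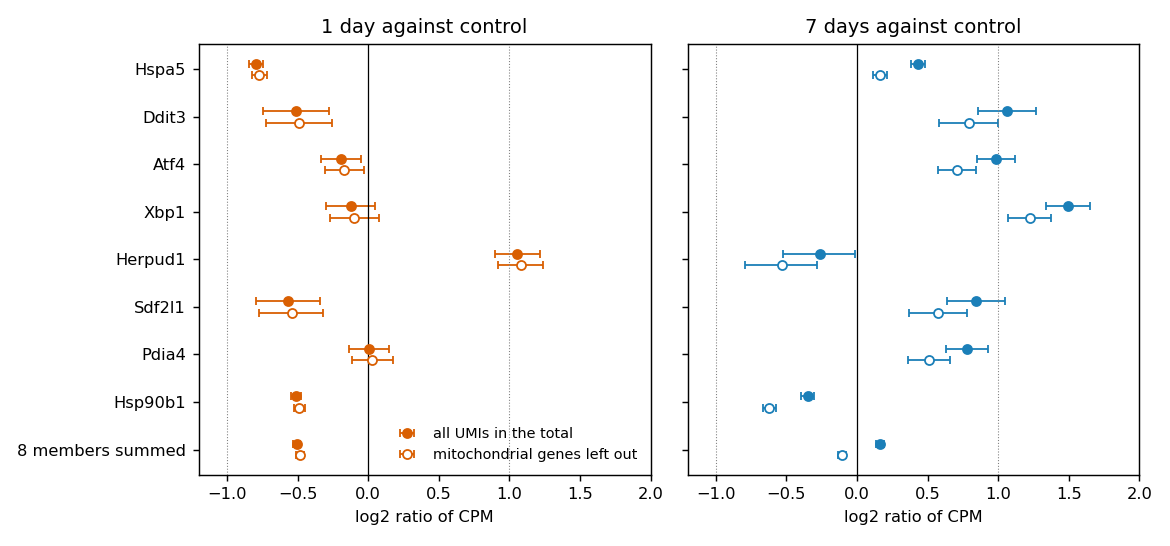
Log2 ratio of CPM against control for each member at 1 day and at 7 days, with all UMIs in the total (filled) and with mitochondrial genes left out (open), with 95% counting intervals and dotted lines at 2-fold. Herpud1 is the only member above 2-fold at 1 day (log2 ratio 1.06), and only the sum changes sign at 7 days, from 0.16 to -0.11.

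With a ratio of at least 2 or at most 0.5 as the limit, 1 member was called higher and none lower at 1 day against control, beside 12.2% of 11357 genes higher and 5.86% lower. At 7 days against control 2 members, Ddit3 and Xbp1, were called higher and none lower, beside 8.79% of 10227 genes higher and 21.8% lower. Without mitochondrial genes Xbp1 alone remained past 2-fold, beside 6.17% higher and 28.9% lower. At 7 days against 1 day 5 members (Hspa5, Ddit3, Atf4, Xbp1 and Sdf2l1) were called higher and Herpud1 lower, beside 11.6% of 10271 genes higher and 27.8% lower. The median ratio of the members was 0.789 at 1 day against control, 1.75 at 7 days against control and 2.30 at 7 days against 1 day, and that of all genes tested 1.03, 0.862 and 0.852. Both comparisons with control share the control library. In the same cells the 12 dissociation and immediate early genes, such as Fos and Jun, which respond to enzymatic digestion, gave 1387 CPM in control, 1005 at 1 day and 3796 at 7 days. At 7 days 9 of 12 were at least 2-fold higher. Their sum, like that of the members, was below control at 1 day and above it at 7 days. Herpud1 went the other way at both times and Hsp90b1 at 7 days. Without mitochondrial genes the median ratio of the 12 genes at 7 days was 2.32, while the sum of the members was below control. The part of these genes in the result was not tested.

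The sum was lower at 1 day in macrophage-gated and in endothelial-gated cells. It was also lower in neutrophil-gated (0.759-fold, 0.602 to 0.945), T and NK (0.772-fold, 0.668 to 0.889) and mesenchymal cells (0.776-fold, 0.620 to 0.960). The same held for conventional dendritic cells (0.807-fold, 0.683 to 0.949) and ungated cells (0.770-fold, 0.735 to 0.806). In monocyte-gated (0.746 to 1.13) and plasmacytoid dendritic cells (0.756 to 1.30) the interval held equality. In macrophage-gated cells, the phagocytes of the liver, the sum gave 2806 CPM against 4359 in control, 0.644-fold (0.625 to 0.663). Hspa5 was 0.556-fold (0.526 to 0.587), Hsp90b1 0.618-fold (0.593 to 0.644) and Herpud1 2.03-fold (1.68 to 2.47). In endothelial-gated cells the sum gave 2500 against 3793, 0.659-fold (0.632 to 0.688), with Hspa5 at 0.539-fold, Sdf2l1 at 0.451-fold (0.281 to 0.721) and Herpud1 at 1.39-fold (1.09 to 1.78). The share of all genes past 2-fold was 12.2% higher and 4.03% lower in macrophage-gated cells, where 1 member was higher, and 9.19% higher and 2.14% lower in endothelial-gated cells, where 1 member was lower. Herpud1 was also higher in conventional dendritic cells (cDC), at 184 against 71.5 CPM, a ratio of 2.58 (1.01 to 6.36) on 10 and 13 UMIs whose interval held equality without mitochondrial genes (0.970 to 6.10). In ungated cells it was higher as well, at 151 against 61.9 CPM (2.43-fold, 1.89 to 3.14). The 85 hepatocyte-gated cells had the highest Herpud1 level at 1 day among gates with at least 20000 UMIs, 379 CPM (303 to 467), with Hspa5 at 840. Their sum of the members was not the highest, at 3009 CPM (2789 to 3242). It was 2806 in macrophage-gated cells (2739 to 2874) and 4464 in plasmacytoid dendritic cells (3603 to 5469).

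The members also varied with the share of hepatocyte markers in a cell. Among macrophage-gated cells at 1 day, Hspa5 gave 966 CPM (805 to 1149) in the 213 cells with up to 0.5% of hepatocyte marker UMIs, 949 in the 830 cells with 0.5 to 1%, 790 in the 1420 cells with 1 to 2%, 542 (467 to 626) in the 656 cells with 2 to 4% and 757 (659 to 866) in the 145 cells over 4%. The level was thus lowest in the fourth band and not in the last one. In the control macrophages with up to 0.5% it gave 1446 (1402 to 1491). Herpud1 gave 83.7 CPM (41.8 to 150), 102, 107 and 108 in the first 4 bands, whose intervals overlapped, and 254 (198 to 320) in the cells over 4%, against 57.4 (48.9 to 67.1) in the control cells with up to 0.5%. In endothelial-gated cells with up to 0.5% at 1 day, Hspa5 gave 1125 CPM (928 to 1351) and the sum 4025 (3644 to 4435), and the intervals overlapped those of control, 1135 (1069 to 1203) and 3798 (3677 to 3922), though they rest on 168 cells. In the 618 such cells with 0.5 to 1% both were below control, with Hspa5 at 643 (566 to 728) and the sum at 2708 (2547 to 2876), and in all endothelial-gated cells with up to 1% they gave 742 (668 to 823) and 2979 (2829 to 3136). When only cells with up to 1% of hepatocyte marker UMIs were kept, which held 25.1% of the cells at 1 day, the sum was 0.853-fold of control (0.828 to 0.879), Hspa5 0.727-fold, Hsp90b1 0.861-fold, Herpud1 1.90-fold (1.61 to 2.25) and Pdia4 1.30-fold (1.13 to 1.51), while the intervals of Atf4 (0.815 to 1.11) and Sdf2l1 (0.689 to 1.11) held equality. In the same cells Herpud1 was 1.72-fold higher in macrophage-gated cells (1.29 to 2.27) and 1.57-fold higher in endothelial-gated cells (1.13 to 2.16).

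**Figure D3:**
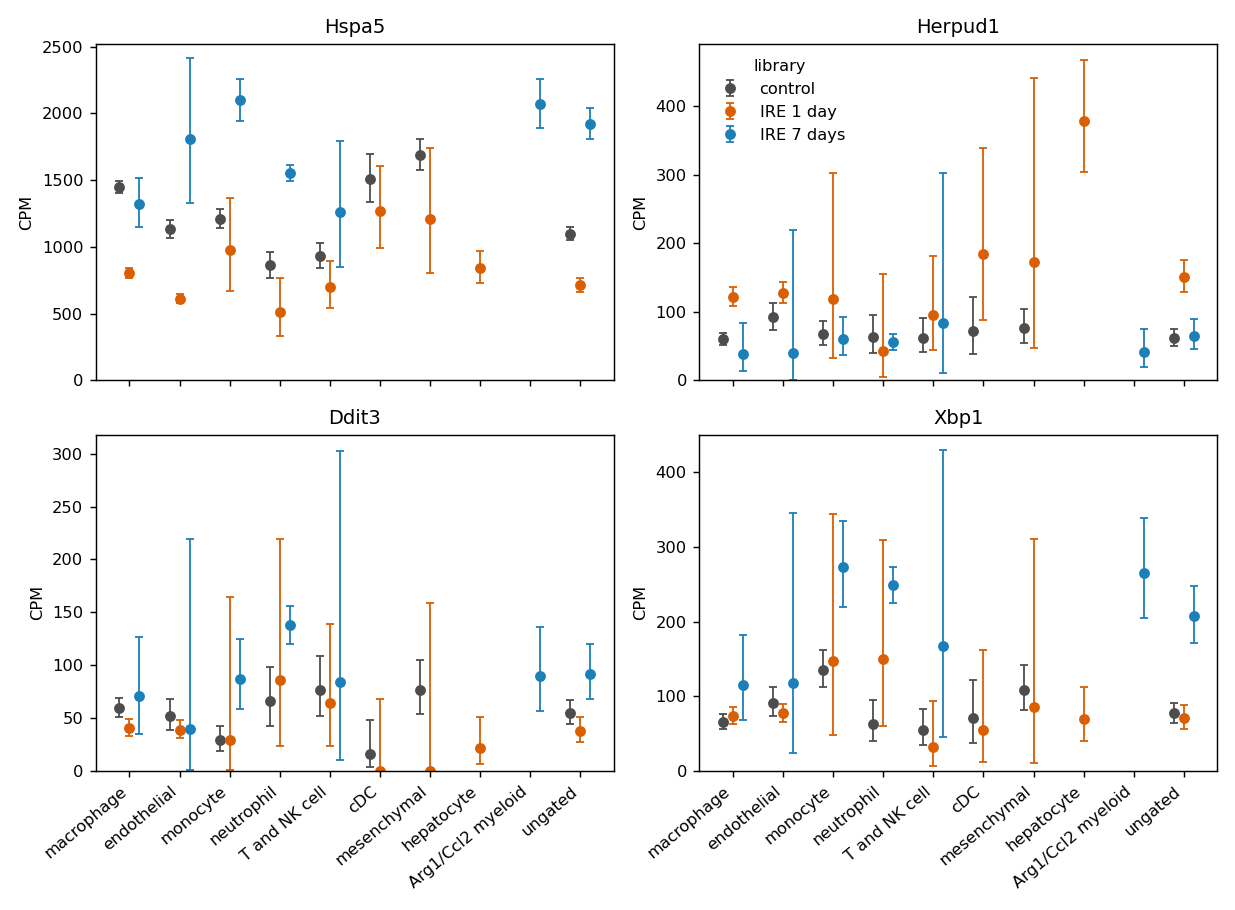
CPM of Hspa5, Herpud1, Ddit3 and Xbp1 by marker gate and library, with 95% counting intervals, for combinations with at least 20000 UMIs. Herpud1 at 1 day is highest in hepatocyte-gated cells (379 CPM), and Hspa5 at 1 day lies below control in macrophage-gated (804 against 1446) and endothelial-gated cells (610 against 1133).

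At 7 days p.i. Hspa5, Hsp90b1, Pdia4, Xbp1, Atf4 and Ddit3 were higher in neutrophil-gated and monocyte-gated cells than in the same gates of control. Sdf2l1 was higher in monocyte-gated cells, and the intervals of Sdf2l1 in neutrophil-gated cells and of Herpud1 in both gates held equality. Without mitochondrial genes those of Hsp90b1 in both gates and of Atf4 in monocyte-gated cells held it too, and that of Pdia4 in monocyte-gated cells began at 1.00. In neutrophil-gated cells the sum gave 3893 CPM against 2487, 1.56-fold (1.46 to 1.68). Xbp1 gave 249 CPM against 63.5, 3.92-fold (2.58 to 6.25). Atf4 gave 268 against 116, 2.31-fold (1.68 to 3.25), and Ddit3 138 against 66.3, 2.08-fold (1.36 to 3.31). The factors of both arms were thus higher in this gate. Pdia4 gave 156 against 77.3, 2.01-fold (1.36 to 3.09), and Hspa5 1554 against 861, 1.80-fold (1.60 to 2.04). Herpud1 gave 55.3 against 63.5, 0.870-fold (0.547 to 1.44), and Sdf2l1 89.4 against 58.0, 1.54-fold (0.973 to 2.56). In this gate 4 members were at least 2-fold higher and none lower, beside 19.3% of 4668 genes higher and 4.73% lower. The median ratio was 1.91 for the members and 1.225 for all genes tested in this gate. Without mitochondrial genes Xbp1 alone stayed past 2-fold, at 3.03 (1.99 to 4.83), with Atf4 at 1.79, Ddit3 at 1.61 and Pdia4 at 1.56. The shares of 19.3% and 4.73% and the medians belong to the total with mitochondrial genes, and none were taken without them in this gate. Hsp90b1 was 1.17-fold higher (1.06 to 1.30), a ratio below the median of all genes, and 0.907-fold without mitochondrial genes (0.818 to 1.01). Without S100a8 and S100a9 in the gate, which left 179 control cells and 1605 cells at 7 days, Xbp1 was 7.91-fold higher (3.05 to 29.3), Pdia4 3.25-fold (1.22 to 12.2), Atf4 3.29-fold and Hspa5 2.24-fold.

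In monocyte-gated cells the sum gave 4740 CPM against 3139, 1.51-fold (1.42 to 1.61). Ddit3 was 2.996-fold higher (1.70 to 5.29) on 26 and 29 UMIs, Sdf2l1 2.05-fold (1.36 to 3.07), Xbp1 2.02-fold (1.52 to 2.67) and Hspa5 1.73-fold (1.57 to 1.91). Herpud1 was 0.895-fold (0.511 to 1.51). These 3 members past 2-fold stood beside 15.0% of 3316 genes higher and 5.64% lower. The median ratio in this gate was 1.77 for the members and 1.13 for all genes tested. Without mitochondrial genes Ddit3 alone stayed past 2-fold, at 2.37 (1.35 to 4.19), with Sdf2l1 at 1.62, Xbp1 at 1.60 and Atf4 at 1.26 (0.924 to 1.71). No share or median of all genes was taken on that total in this gate. In the 206 macrophage-gated cells at 7 days no member passed 2-fold in either direction, beside 8.97% of genes higher and 10.3% lower. Here the median ratio was 1.11 for the members and 1.055 for all genes tested. There Hspa5 gave 1323 CPM against 1446 in control (0.915-fold, 0.792 to 1.05), Hsp90b1 was 0.805-fold (0.715 to 0.904) and Xbp1 1.75-fold (1.02 to 2.85), or 1.52-fold (0.883 to 2.47) without mitochondrial genes. The difference between gates was not tested. Mitochondrial genes took 4.73% of the UMIs in neutrophil-gated cells at 7 days and 26.3% in control, and without them the sum was 1.21-fold (1.13 to 1.30) in neutrophil-gated, 1.20-fold (1.12 to 1.27) in monocyte-gated and 0.770-fold (0.709 to 0.836) in macrophage-gated cells.

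Plasma cells, which make and secrete antibodies, had the highest level of the sum in control and at 1 day, with 19344 CPM for the sum in 16 control cells (17200 to 21682) and 17302 in 14 cells at 1 day (15067 to 19776). Their Xbp1 was at 1180 (700 to 1865) and 1046 CPM (557 to 1789), and their Hsp90b1 at 13180 and 10864, whereas Ddit3 had 0 UMIs in both libraries, which allows up to 3 UMIs of 15250 in control. Among the control gates with at least 20000 UMIs, the sum was highest in mesenchymal cells at 4883 CPM (4690 to 5081), followed by plasmacytoid dendritic cells at 4500, macrophages at 4359 and cDC at 4200, then endothelial cells at 3793, cholangiocytes at 3732, T and NK cells at 3159, monocytes at 3139, neutrophils at 2487 (2328 to 2655) and B cells at 2127 (1733 to 2585). The intervals of neighbours in this order overlapped, except between monocytes and neutrophils. At 7 days the highest sum among gates with at least 20000 UMIs was in the myeloid cells gated by Arg1 and Ccl2, at 5576 CPM (5284 to 5880), with Hspa5 at 2067, Hsp90b1 at 2214, Pdia4 at 429 and Xbp1 at 266. They were too few in control (10 cells) for a comparison.

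Shares of cells were compared at one depth. After each cell was thinned to 300 UMIs, Hspa5 was detected in 28.2% of control cells (27.3 to 29.1), 17.9% at 1 day (17.1 to 18.7) and 33.8% at 7 days (32.5 to 35.1). Xbp1 was detected in 2.35%, 2.23% and 7.07%, Ddit3 in 1.56%, 1.25% and 3.62% and Herpud1 in 1.95%, 3.61% and 1.63% of cells. The unthinned shares were 47.7%, 30.4% and 46.3% for Hspa5 and 4.81%, 7.66% and 2.85% for Herpud1. The thinned values leave out 209, 298 and 545 cells under that depth. No gate is known to lack these genes, so that a background share could not be given.

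Other genes of the pathway were taken from 4 lists. Their values are of all cells of a library, and none were taken by gate. Neutrophil-gated cells made up 4.8% of the cells in control and 57.7% at 7 days. The part of cell composition was not tested. Of all genes tested, 12.2% were past 2-fold higher and 5.86% lower at 1 day (median ratio 1.03). At 7 days 8.79% were higher and 21.8% lower (median 0.862), or 6.17% and 28.9% without mitochondrial genes (median 0.715). Of the 17 ER chaperones and folding enzymes, none passed 2-fold at 1 day against control, and the median ratio was 0.915. At 7 days 2 were higher and 1 lower, with a median ratio of 1.53, or 1.27 without mitochondrial genes. The lectin chaperones Calr and Canx gave 891, 861 and 1220 and 658, 599 and 586 CPM in control, at 1 day and at 7 days. Pdia3, a disulfide isomerase that works with them, gave 513, 453 and 634. Ero1l, the oxidase that supplies disulfide bonds, gave 17.4, 14.6 and 218 CPM, 12.5-fold at 7 days (10.4 to 15.2). Its paralog Ero1lb had the highest ratio of the list at 1 day, 1.59 (1.22 to 2.08), and Creld2 the lowest, 0.581 (0.503 to 0.669). Fkbp11, a prolyl isomerase of secretory cells, was lowest at 7 days, 0.137-fold (0.0491 to 0.307), on 6 UMIs at 7 days and 115 in control.

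Of the 14 genes of ER-associated degradation and translocation that could be tested, none passed 2-fold at 1 day (median ratio 0.913). At 7 days 2 were higher and none lower (median 1.24), and none passed without mitochondrial genes (median 1.03). Sec61b, a subunit of the translocation channel, gave 342, 238 and 671 CPM, Spcs2, a subunit of the signal peptidase, 222, 206 and 391, and Os9, a lectin that recognises misfolded glycoproteins, 201, 223 and 208. Selk had the highest ratio at 7 days, 2.10 (1.92 to 2.29), and Sel1l, the partner of the ubiquitin ligase Syvn1, the lowest, 0.756 (0.616 to 0.923). At 1 day Derl1 was highest, 1.22 (1.07 to 1.40), and Sec11c lowest, 0.587 (0.530 to 0.650).

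Of the 4 lists, the targets of the PERK and ATF4 arm had the most genes past 2-fold at both times. Of 13 genes tested, 1 was higher and 6 were lower than control at 1 day (median ratio 0.840), beside 12.2% and 5.86% of all genes. At 7 days 5 were higher and 2 lower (median 1.47, or 1.22 without mitochondrial genes), beside 8.79% and 21.8% of all genes. The sum of the list was 558, 420 and 1368 CPM. Slc7a11, the cystine transporter, gave 5.12, 2.13 and 183 CPM, 35.8-fold at 7 days (26.0 to 50.4), and Slc3a2, its partner chain, 92.6, 102 and 305, 3.29-fold (2.99 to 3.63). Ppp1r15a (GADD34), which restores translation, gave 71.6, 91.7 and 234, 3.26-fold at 7 days (2.92 to 3.65). Atf3 gave 108, 30.1 and 267 CPM, 0.278-fold at 1 day (0.236 to 0.326) and 2.47-fold at 7 days (2.24 to 2.72). At 1 day Atf5 was highest, 59.3 CPM against 16.6, 3.57-fold (2.92 to 4.39), and Cebpb lowest, 0.256-fold (0.205 to 0.317). At 7 days Phgdh, an enzyme of serine synthesis, was lowest, 0.390-fold (0.205 to 0.688). Atf5 was higher than control only at 1 day and stood at 10.5 CPM at 7 days. Herpud1 and other listed genes, such as Shmt2, Mbtps1 and Creb3l2, were also higher only at 1 day. No value of Atf5 was taken in cells with few hepatocyte markers.

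Of the 10 sensors and transducers, none passed 2-fold at 1 day (median ratio 0.896). At 7 days 1 was lower (median 1.06), beside 21.8% of all genes. Without mitochondrial genes 3 were lower (median 0.882), beside 28.9% of all genes. The sum of the list was 333, 310 and 333 CPM. Atf6, the membrane-bound transcription factor, gave 58.5, 61.1 and 79.4 CPM and had the highest ratio at 7 days, 1.36 (1.16 to 1.59). Eif2s1, the initiation factor subunit that PERK phosphorylates, gave 66.3, 53.9 and 89.3. Eif2a, which is another initiation factor and not a sensor, was counted in the list and gave 63.0, 51.1 and 34.0. Creb3l2 was lowest at 7 days, 0.389-fold (0.263 to 0.559). At 1 day Mbtps1, the protease that cleaves ATF6, was highest, 1.37 (1.08 to 1.73), and Atf6b lowest, 0.720 (0.559 to 0.923).

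**Figure D4:**
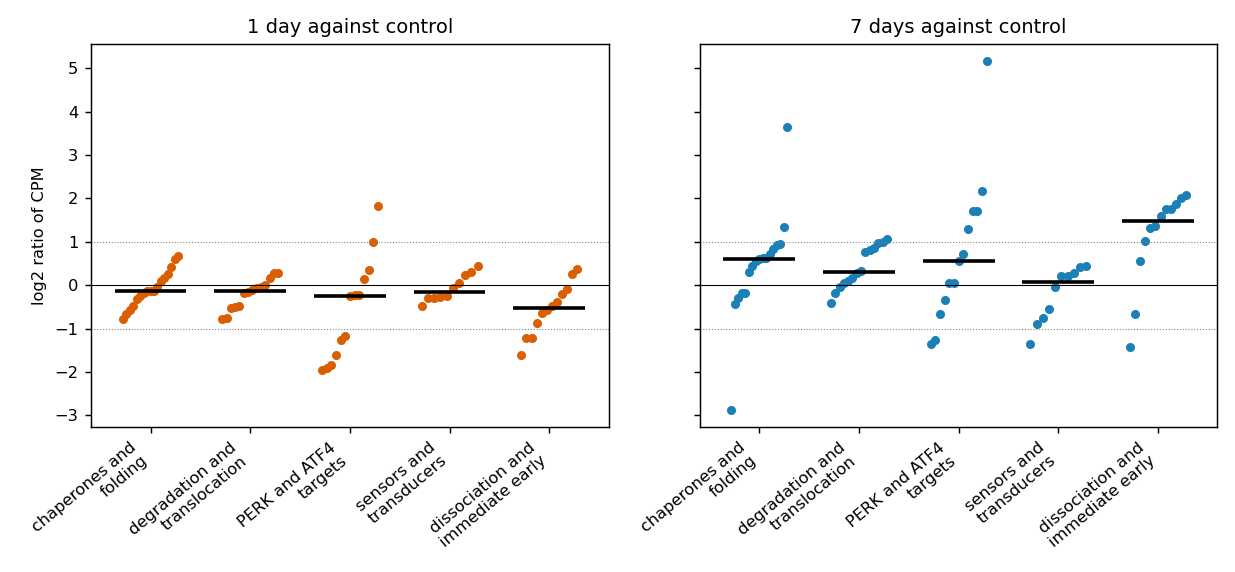
Log2 ratio of CPM against control of each gene with at least 50 UMIs in the 2 libraries, by list, at 1 day and at 7 days, with the median of each list as a bar and dotted lines at 2-fold. Slc7a11 and Ero1l are the highest points at 7 days (35.8-fold and 12.5-fold), and the dissociation and immediate early genes have the highest median at 7 days (log2 ratio 1.48).

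The genes whose levels over the 28 combinations of gate and library were most like the sum of the members were Manf (Spearman's rho 0.761), Rab24 (0.759), Psmd7 (0.755), P4ha1 (0.753) and D17Wsu104e (0.750), of 4722 genes compared. Manf is itself an ER stress gene of the chaperone list, and P4ha1 encodes a prolyl hydroxylase of the ER. These correlations share libraries and depth and are a description.

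**Figure D5:**
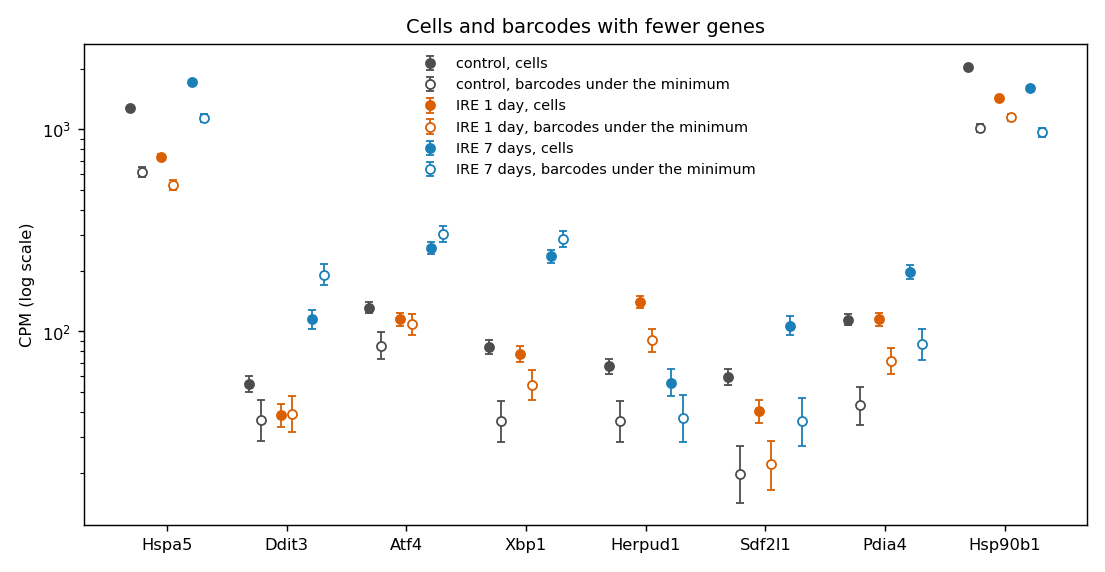
CPM (log scale) of each member in cells (filled) and in barcodes with fewer than 200 genes (open), by library, with 95% counting intervals. At 7 days Ddit3, Atf4 and Xbp1 lie higher in the barcodes with fewer genes than in cells (191 against 115 for Ddit3), and the other members lie lower.

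Barcodes with fewer than 200 genes held 20.1% of all UMIs in control, 28.7% at 1 day and 33.2% at 7 days and enter none of the comparisons above. In the 7-day library, Ddit3 gave 191 CPM in them (170 to 215) and 115 in cells (103 to 127), Atf4 304 and 259, and Xbp1 287 and 236, while Hspa5 gave 1141 and 1709 and Sdf2l1 36.2 and 107. Of the 6842 such barcodes at 7 days, 5506 met the neutrophil gate, and in these Ddit3 was at 206 CPM (181 to 233), against 138 (120 to 156) in neutrophil-gated cells.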

How the data were processed

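Single-cell suspensions of 3 pooled livers per condition were sequenced in 3 Drop-seq libraries. Per the file headers, the authors used the Drop-seq tools to count UMIs from sense reads over exons and deposited these raw counts per gene and barcode. The submitters' processing notes name STAR 2.5.2a and the human build hg19, although the symbols are mouse symbols, so that no coordinates were taken from the count tables. Per the file headers the counts are limited to barcodes with 200 genes, but the deposited tables hold barcodes with as few as 11. The labels and the methods of the study differ in the pulse voltage and in whether the controls had sham surgery.

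The members, the marker lists, the pathway lists and the alternatives were chosen with earlier results of these data known. Barcodes with at least 200 genes were kept. A cell was gated as a hepatocyte with at least 20% of its non-mitochondrial UMIs in hepatocyte markers, and otherwise into the class of which it held at least 2 different markers and more than of any other of 14 classes. UMIs were summed per gate and library and divided by the total to give CPM, not by gene length. Levels have exact Poisson intervals, shares exact Clopper-Pearson intervals and ratios conditional binomial intervals at 95% (scipy). Intervals and floors cover counting error only. For the share of all genes past 2-fold, genes with at least 50 UMIs in both libraries together were used, and 0 UMIs were set to the floor of 3. Ratios of gates required 20000 UMIs in each library. Named genes of each list are the 3 with the most UMIs and those with the highest and the lowest ratio at each time, and the genes most like the members are the 5 with the highest rho among genes with at least 500 UMIs. Doublets were not called, and leaving out the deepest 5% of cells was an alternative. The intervals were checked on simulated counts with counting error alone, which cannot show whether they cover variation between cells or animals. With 1 library per condition no test across samples was made.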

Additional observations from a re-analysis of the deposited data

Results flagged for a closer look

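Barcodes with fewer than 200 genes enter no comparison of the report, and 10 values in them at 1 or 7 days p.i. lay above control with intervals that did not overlap. In the 7-day library these were Hspa5 with 1141 CPM (control 614), Ddit3 with 191 (control 36.7), Atf4 with 304 (control 85.2), Xbp1 with 287 (control 36.2), Sdf2l1 with 36.2 (control 19.8) and Pdia4 with 86.8 (control 43.1). In the 1-day library they were Xbp1 with 54.6, Herpud1 with 90.4 (control 36.2), Pdia4 with 71.7 and Hsp90b1 with 1146 (control 1015). Mitochondrial genes took 52.7% of the UMIs of these barcodes in control, 38.7% at 1 day and 8.41% at 7 days, and neutrophil markers 0.983%, 0.0849% and 9.96%. Without mitochondrial genes in the total, 4 of the 10 stayed above control. These were Xbp1 at 4.11-fold (3.20 to 5.34), Ddit3 at 2.70-fold (2.08 to 3.53) and Atf4 at 1.85-fold (1.55 to 2.21) at 7 days and Herpud1 at 1.93-fold (1.48 to 2.55) at 1 day. The intervals of Hspa5 (0.893 to 1.03), Sdf2l1 (0.616 to 1.46) and Pdia4 (0.788 to 1.38) at 7 days and of Xbp1 (0.870 to 1.57) and Pdia4 (0.988 to 1.68) at 1 day held equality, and Hsp90b1 at 1 day turned to 0.871-fold (0.823 to 0.923). The part of the neutrophil markers in these values was not tested.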

How the results depend on the processing

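Values here are log2 ratios, and the cause of each shift was not tested. For the sum at 1 day against control (-0.51), every alternative kept the direction. The ratio was -0.45 with a minimum of 100 genes, -0.45 with every deposited barcode, -0.47 without cells over 20% mitochondrial UMIs, -0.43 with mitochondrial genes and hepatocyte markers left out of the total, -0.47 with gates weighted by their control shares and -0.23 without cells over 1% of hepatocyte marker UMIs. For the sum at 7 days against control (0.16) the direction turned to -0.032 without cells over 20% mitochondrial UMIs, to -0.11 with mitochondrial genes left out of the total and to -0.11 with hepatocyte markers left out as well. It was 0.13 with a minimum of 500 genes, 0.20 without the deepest 5% of cells, 0.20 as a mean over cells and 0.33 with gates weighted by their control shares. For the sum at 7 days against 1 day (0.67) the ratio stayed positive and was 0.63 with a minimum of 100 genes, 0.63 with every barcode, 0.435 without cells over 20% mitochondrial UMIs, 0.38 and 0.32 in the same 2 changes of the total, 0.705 without the deepest 5%, 0.80 with weighted gates and 0.40 without cells over 1% of hepatocyte marker UMIs. Leaving out the barcodes found in more than 1 library and the cells over 1% of hepatocyte marker UMIs, and taking S100a8 and S100a9 out of the gate, were chosen after seeing the data.

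Of single members, Hsp90b1 at 7 days against 1 day (0.16) turned to -0.06 without cells over 20% mitochondrial UMIs, -0.13 and -0.19 in the 2 changes of the total and -0.13 without cells over 1% of hepatocyte marker UMIs. At 7 days against control Hsp90b1 turned to -0.056 and -0.057 in monocyte-gated cells in these changes of the total, and in neutrophil-gated cells to -0.14 and -0.15, with -0.087 without cells over 20% mitochondrial UMIs. With a minimum of 500 genes, Xbp1 in macrophage-gated cells turned to -0.45 and Atf4 in monocyte-gated cells to -0.24, both with intervals that held equality. Among 240 alternatives for members by library 152 lay within the interval of the reported value, 84 lay outside it in the same direction or beside an interval that held equality, and 4 turned, and among 480 by gate the numbers were 438, 35 and 7. No paired analysis was possible because each condition has 1 library. Members with few UMIs in a gate, such as Herpud1 with 6 in macrophage-gated cells at 7 days, are limited by depth.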

Other observations

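Most barcodes that met the neutrophil gate at 7 days p.i. lay under the minimum of 200 genes, 5506 barcodes with a median of 219 UMIs beside 3244 gated cells with a median of 443. In the former, Xbp1 gave 300 CPM, Atf4 307 and Ddit3 206, whereas in the latter they gave 249, 268 and 138. The chaperones Hspa5 (1036 against 1554) and Hsp90b1 (777 against 1385), the isomerase Pdia4 (64.1 against 156) and Sdf2l1 (22.4 against 89.4) were lower in the former. In control, 531 such barcodes gave 53.1 CPM for Xbp1, 91.7 for Atf4 and 57.9 for Ddit3, with 47.2% mitochondrial UMIs against 8.85% at 7 days.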
